A study of Homo sapiens with 12 samples.

Results

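The ZNF genes described here are the 362 of 30017 gene symbols in the count table that consist of the letters ZNF, a number and at most 1 further letter, and whose raw counts summed to 3000 or more over all 12 libraries, with ZNF692 left out. Another 167 ZNF symbols fell under that sum. The sum chose the genes, so their levels are a description. ZNF449, ZNF547 and ZNF749 lay just outside with sums of 2967, 2991 and 2996, and ZNF343, ZNF818P and ZNF69 just inside with 3151, 3156 and 3160. The median sum was 13555 and the highest 257386, in ZNF207. All 362 passed the filter on low counts, as the rule made likely, and 24 of them would not reach 1500 counts in the 6 DMSO libraries alone.

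The cells were THP-1, a human monocytic leukaemia line, in 4 groups of 3 poly(A) RNA libraries: IRAK4 knockout (KO) cells given 50 nM CC-885 for 12 h, KO cells given DMSO, wild type (WT) cells given 50 nM CC-885 for 12 h, and WT cells given DMSO. All 4 groups descend from cells that were electroporated with Cas9, with a guide against IRAK4 for KO and without one for WT, and then grown from single cells, so WT here means unedited cells grown from a single cell and not the parental line. IRAK4 encodes a kinase that relays signals of Toll-like and interleukin-1 receptors. CC-885 is a molecular glue: bound to cereblon, it makes the cell tag and degrade proteins it otherwise leaves alone, such as GSPT1, a translation termination factor. The labels give neither the number of clones nor whether the 3 libraries of a group are separate cultures, so p-values measure the spread between these libraries, which may be technical, and an effect of the knockout cannot be told apart from a difference between clones.

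ZNF genes mostly encode C2H2 zinc finger proteins, in which each finger folds around a zinc ion and reads a few bases of DNA, so that an array of fingers recognises a longer site. The largest class also carries a KRAB domain, which recruits TRIM28 and, through it, the histone methyltransferase SETDB1 and HP1 proteins to silence transposable elements and imprinted genes. These KRAB genes spread by tandem duplication and sit in clusters on chromosome 19. Proteins with single or scattered C2H2 fingers often bind RNA or ribosomal particles instead.

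In the GENCODE 29 annotation of GRCh38 all 362 were found, 5 of them under another symbol. Of these, 357 were protein-coding, 169 lay on chromosome 19, and 215 held a KRAB pattern (a KRAB A box consensus in the first 250 residues, which misses divergent KRAB domains such as that of ZNF202). The median coding sequence held 11 fingers by the pattern searched and the most, in ZNF91, was 31. The pattern found 0 fingers in 8 genes, among them ZNF503 and ZNF330. Exons of 96 of the genes overlapped exons of another gene on the opposite strand by 100 bases or more. Whether counting used strand, and how reads shared between near-identical paralogs were treated, is not given in the sources used here, so values of such genes are uncertain.

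Library totals ranged from 46903984 to 56675539 counts, and 16010 genes were tested. IRAK4 RNA averaged 30.7 ± 1.05 CPM (counts scaled to the library's size by TMM) in KO cells under CC-885 and 8.26 ± 0.85 in KO cells under DMSO, against 72.8 ± 9.53 in WT cells under CC-885 and 52.2 ± 1.57 in WT cells under DMSO (SD, n = 3 each), so within each treatment every KO library lay below every WT library. Of 11 monocytic markers 9 reached 5 CPM on average, the exceptions being CD14 (mean 2.62 CPM) and MPO (4.93 CPM). CD3E, MS4A1, KRT5 and CDH5 were at 0 in every library, while NKG7, a T and NK cell marker, averaged 9.26 CPM. The summed monocytic markers ran from 2065 to 2126 CPM in KO cells under CC-885 and 3581 to 4514 under DMSO, and from 2353 to 2421 CPM in WT cells under CC-885 and 2954 to 3030 under DMSO. The 6 epithelial, stromal and endothelial markers, of which PECAM1 alone reached 5 CPM, summed to 91.8 to 98.2 CPM in KO cells under CC-885 and 411 to 459 under DMSO, and to 100.2 to 114 CPM in WT cells under CC-885 and 267 to 301 under DMSO. The 6 T and NK cell markers summed to at most 20.9 CPM. The part of these markers in the ZNF results was not tested. WT CC-885 replicate 3 stood apart: over the 362 genes, the SD of its log2 deviations from its group mean was 0.197, against 0.0520 to 0.122 in the other libraries, and for several of the genes it moved most the value without it is also given.

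RNA of the ZNF genes made up a larger share of the counts under CC-885 than under DMSO in both genotypes. Summed over the 362 genes, the level was 17530, 17180 and 16800 CPM in KO cells under CC-885, against 8456, 8859 and 8938 CPM under DMSO. In WT cells it was 15980, 16240 and 18070 CPM under CC-885, against 10080, 10330 and 10340 CPM under DMSO. Every CC-885 library lay above every DMSO library. The median gene had 28.2 CPM in KO and 26.6 CPM in WT cells under CC-885, and 15.2 and 17.7 CPM in KO and WT cells under DMSO. These values are relative to the rest of the RNA in each library, and in bulk samples fewer cells of a type and less RNA per cell cannot be told apart.

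**Figure D1:**
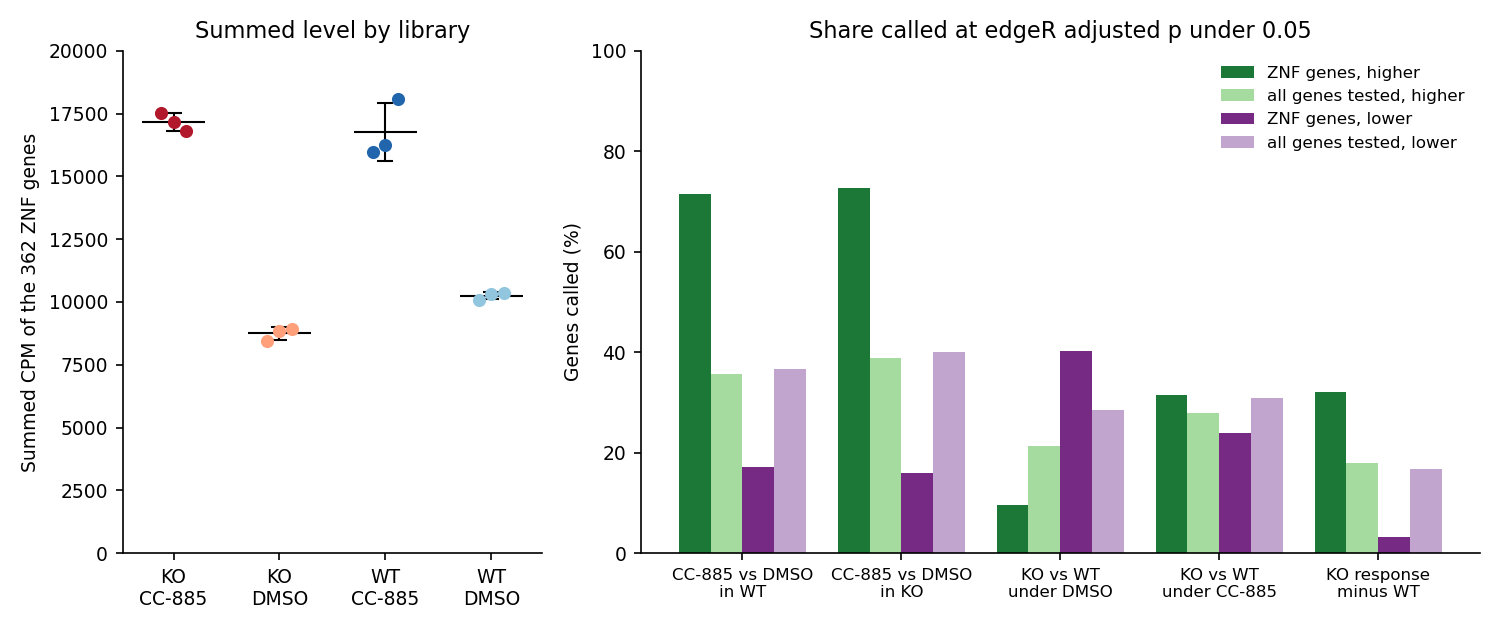
Left, summed CPM of the 362 ZNF genes in each library (points), with the mean (line) and SD (bars) of each group of 3. Right, percentage of the ZNF genes (dark bars) and of all 16010 genes tested (light bars) called higher or lower at an edgeR adjusted p under 0.05 in 5 comparisons; under CC-885 71.5% of the ZNF genes were higher in WT, against 35.7% of all genes.

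Under CC-885 most ZNF genes rose. In WT cells 259 of the 362 were higher and 62 lower at an edgeR quasi-likelihood adjusted p (Benjamini-Hochberg over all genes tested) under 0.05, with a median log2 fold change of 0.66. Of all genes tested, 35.7% were called higher and 36.6% lower, with a median of -0.03. In KO cells 263 were higher and 58 lower, with a median of 0.85, where 38.9% of all genes were called higher and 40.0% lower. A change of 2-fold or more was seen in 111 higher and 15 lower genes in WT, and in 161 higher and 16 lower genes in KO. Of all 16010 genes tested, 2660 were higher and 2033 lower by 2-fold or more in WT, and 3436 higher and 3227 lower in KO. The sum that chose the genes contains the CC-885 libraries, which favours genes that rose. Among all 10713 tested genes with 3000 or more counts, 39.4% were higher and 41.7% lower in WT, and 43.5% higher and 42.2% lower in KO. With the genes chosen instead by 1500 or more counts in the 6 DMSO libraries, which favours genes that fell, 235 of 348 ZNF genes were higher and 71 lower in WT (median 0.60), and 239 were higher and 68 lower in KO (median 0.77). Under that choice 36.8% of all such genes were higher in WT and 40.8% in KO. The 108 tested ZNF genes under 3000 counts gave 41 higher (38.0%) and 23 lower (21.3%) in WT. In KO they gave 43 higher (39.8%) and 30 lower (27.8%). Of all genes tested, 35.7% were higher and 36.6% lower in WT, and 38.9% higher and 40.0% lower in KO. Most of these had 3000 or more counts (10713 of 16010), which makes a call easier. Shares for all genes under 3000 counts alone were not computed, so these 108 genes have no like background here.

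The genes that changed most are shown with the DNA just before their start sites, the stretch where transcription of each begins: ZNF697, ZNF222, ZNF335 and ZNF433, the largest 4 rises in WT, and ZNF367 and ZNF71, the largest 2 falls. Each is the 250 bases before the start, 5′ to 3′ on the gene's own strand, from RefSeq (GRCh38.p14). Capitals mark letters that match, on either strand, one of the motifs ETS (CCGGAAGT), NF-Y (CCAAT), CRE (TGACGTCA), AP-1 (TGANTCA), C/EBP-ATF (TGATGNAA), E2F (TTTGGCGC or TTTCCCGC), YY1 (AAGATGGC) or ZNF143 (CTACAATTC). The positions are chr1:119648267-119648516, minus strand, for ZNF697; chr19:44025129-44025378, plus strand, for ZNF222; chr20:45972204-45972453, minus strand, for ZNF335; chr19:12035680-12035929, minus strand, for ZNF433. Those of the falling genes are chr9:96418371-96418620, minus strand, for ZNF367 and chr19:56595052-56595301, plus strand, for ZNF71.
ZNF697: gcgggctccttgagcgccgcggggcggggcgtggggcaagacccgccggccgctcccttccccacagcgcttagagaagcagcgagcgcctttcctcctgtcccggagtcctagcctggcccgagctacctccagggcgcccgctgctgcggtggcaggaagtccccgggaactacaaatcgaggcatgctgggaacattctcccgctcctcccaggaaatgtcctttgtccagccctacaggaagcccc
ZNF222: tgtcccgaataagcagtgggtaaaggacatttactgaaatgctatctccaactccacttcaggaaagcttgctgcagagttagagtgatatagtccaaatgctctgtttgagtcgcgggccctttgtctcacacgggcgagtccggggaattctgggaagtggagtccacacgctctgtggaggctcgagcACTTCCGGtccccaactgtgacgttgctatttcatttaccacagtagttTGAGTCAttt
ZNF335: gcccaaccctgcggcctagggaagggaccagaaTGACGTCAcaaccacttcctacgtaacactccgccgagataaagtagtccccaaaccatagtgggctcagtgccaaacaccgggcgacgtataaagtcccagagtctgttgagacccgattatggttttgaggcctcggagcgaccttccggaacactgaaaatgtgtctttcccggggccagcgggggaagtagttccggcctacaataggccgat
ZNF433: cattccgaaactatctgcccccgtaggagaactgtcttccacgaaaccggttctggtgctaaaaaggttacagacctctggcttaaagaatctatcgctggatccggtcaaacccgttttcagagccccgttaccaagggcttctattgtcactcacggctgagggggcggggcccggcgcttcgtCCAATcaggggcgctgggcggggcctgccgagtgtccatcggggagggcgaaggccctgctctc
ZNF367: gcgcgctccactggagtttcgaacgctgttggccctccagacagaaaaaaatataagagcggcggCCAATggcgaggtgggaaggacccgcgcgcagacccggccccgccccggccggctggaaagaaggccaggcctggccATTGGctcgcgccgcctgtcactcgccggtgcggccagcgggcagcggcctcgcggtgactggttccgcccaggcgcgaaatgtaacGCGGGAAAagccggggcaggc
ZNF71: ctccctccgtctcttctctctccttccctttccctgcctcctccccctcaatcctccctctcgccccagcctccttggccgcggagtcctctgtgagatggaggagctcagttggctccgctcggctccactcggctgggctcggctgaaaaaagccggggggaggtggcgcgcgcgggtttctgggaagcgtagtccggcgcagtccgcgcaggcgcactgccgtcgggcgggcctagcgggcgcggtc
The ZNF222 window holds an AP-1 and an ETS match, ZNF335 a CRE match, ZNF433 an NF-Y match, and ZNF367 an E2F match (TTTCCCGC) and 2 NF-Y matches. The windows of ZNF697 and ZNF71 hold none of these letters. A match is a description and not a binding site.

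Exactly 1 promoter was listed for 250 of the 362 genes. The letters of NF-Y stood in 52.0% of these windows, against 33.4% of all 22114 genes with 1 promoter and 37.0% of the 5761 such genes with 3000 or more counts. In the windows of KRAB genes the share was 60%, and in those without the KRAB pattern 38.9%. ETS letters stood in 14.4% of ZNF windows, against 3.74% of all and 9.08% of those of genes with 3000 or more counts. The 172 genes that were higher in both genotypes held NF-Y letters in 53.5% and ETS letters in 14.5% of windows, and the 33 that were lower in both in 42.4% and 12.1%. Fewer CpG pairs stood in the windows of risers, with a median of 17.5 against 25 in those of fallers, while KRAB windows had 15 and windows without the pattern 23. The CRE letters (5.81% of risers, 3.03% of fallers), AP-1 letters (5.81% and 6.06%) and C/EBP-ATF letters (0.581% of risers, 0 of 33 fallers) were rare in both. These shares were not tested.

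ZNF697, which has 11 fingers and no KRAB pattern, rose more than any other of the 362 in both genotypes. It had 274, 261 and 253 CPM in KO cells under CC-885, against 10.2, 10.7 and 11.9 CPM under DMSO. In WT cells it had 277, 270.4 and 287 CPM under CC-885, against 9.04, 11.3 and 11.9 CPM under DMSO. The treated libraries lay far above the DMSO libraries in both genotypes, with no overlap. The log2 fold change was 4.69 ± 0.09 in WT (SE; edgeR adjusted p = 1.49e-15) and 4.59 ± 0.09 in KO (adjusted p = 9.38e-16).

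The KRAB gene ZNF222 had 33.5, 34.2 and 42.4 CPM in WT cells under CC-885, against 3.89, 3.69 and 3.75 CPM under DMSO, and was about as high in treated KO cells. Its log2 fold change was 3.28 ± 0.11 in WT and 3.04 ± 0.11 in KO (SE; edgeR adjusted p = 5.49e-13 and 4.53e-13); 17.22% of its exon bases are shared with another gene on the same strand. ZNF335, a subunit of histone H3 lysine methyltransferase complexes that is needed by neural progenitors, had 397, 402 and 417 CPM in KO cells under CC-885, against 36.2, 35.2 and 33.5 CPM under DMSO. WT cells had 270.0, 261 and 232 CPM under CC-885, against 40.1, 43.2 and 44.4 CPM under DMSO. Treated KO libraries were thus higher than treated WT libraries, while untreated KO libraries were lower than untreated WT libraries. Its log2 fold change was 3.54 ± 0.07 in KO and 2.58 ± 0.07 in WT. ZNF433, a KRAB gene with 18 fingers, had 27.3, 27.3 and 32.5 CPM in WT cells under CC-885, against 5.32, 4.95 and 4.76 CPM under DMSO, with a log2 fold change of 2.53 ± 0.09 (adjusted p = 1.14e-12).

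The other large rises in WT were in the KRAB genes ZNF610 (log2 fold change 2.48), ZNF674 (2.29), ZNF888 (2.28), ZNF267 (2.22) and ZNF10 (2.21), and in ZNF181 (2.26). Of these, ZNF181 and ZNF267 rest in part on WT CC-885 replicate 3. ZNF181 had 23.4, 23.4 and 55.9 CPM in the treated WT libraries and ZNF267 had 136, 146 and 296 CPM, the third library being the highest in both. Without that library the log2 fold changes were 1.71 and 1.77. In KO cells the 10 largest rises also included ZNF326 (2.74), ZNF211 (2.65), ZNF274 (2.57), ZNF699 (2.57), ZNF197 (2.56) and ZNF160 (2.56), all of which rose in WT too.

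Falls were fewer and, beyond the largest, smaller. ZNF367, a C2H2 gene with 2 fingers by the pattern, had 3.86, 3.51 and 2.86 CPM in KO cells under CC-885, against 41, 44.3 and 45.8 CPM under DMSO. Its level in WT cells was 9.1, 8.59 and 10.4 CPM under CC-885, against 48, 55.1 and 51.9 CPM under DMSO. All treated libraries lay below all DMSO libraries, and the treated KO libraries were the lowest. The log2 fold change was -3.68 ± 0.11 in KO and -2.46 ± 0.10 in WT (SE; edgeR adjusted p = 5.47e-14 and 3.86e-12). The KRAB gene ZNF71 had 2.72, 3.15 and 2.35 CPM in WT cells under CC-885, against 9.04, 7.77 and 9.36 CPM under DMSO (log2 fold change -1.67 ± 0.12), and fell by 2.11 on the log2 scale in KO. Others among the 10 largest falls in WT were ZNF114 (-1.46), ZNF395 (-1.38), ZNF556 (-1.28), ZNF48 (-1.22), ZNF524 (-1.20), ZNF219 (-1.18), ZNF584 (-1.17) and ZNF664 (-1.11). In KO the 10 largest also held ZNF366 (-1.46), ZNF850 (-1.34), ZNF500 (-1.23) and ZNF169 (-1.16). Exons overlap another gene over 34.92% of the exon bases in ZNF395 (FBXO16, same strand), 19.06% in ZNF219 (TMEM253, opposite strand), 17.85% in ZNF500 (C16orf71, opposite), 14.12% in ZNF524 (FIZ1, opposite) and 10.20% in ZNF48 (SEPT1, opposite).

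**Figure D2:**
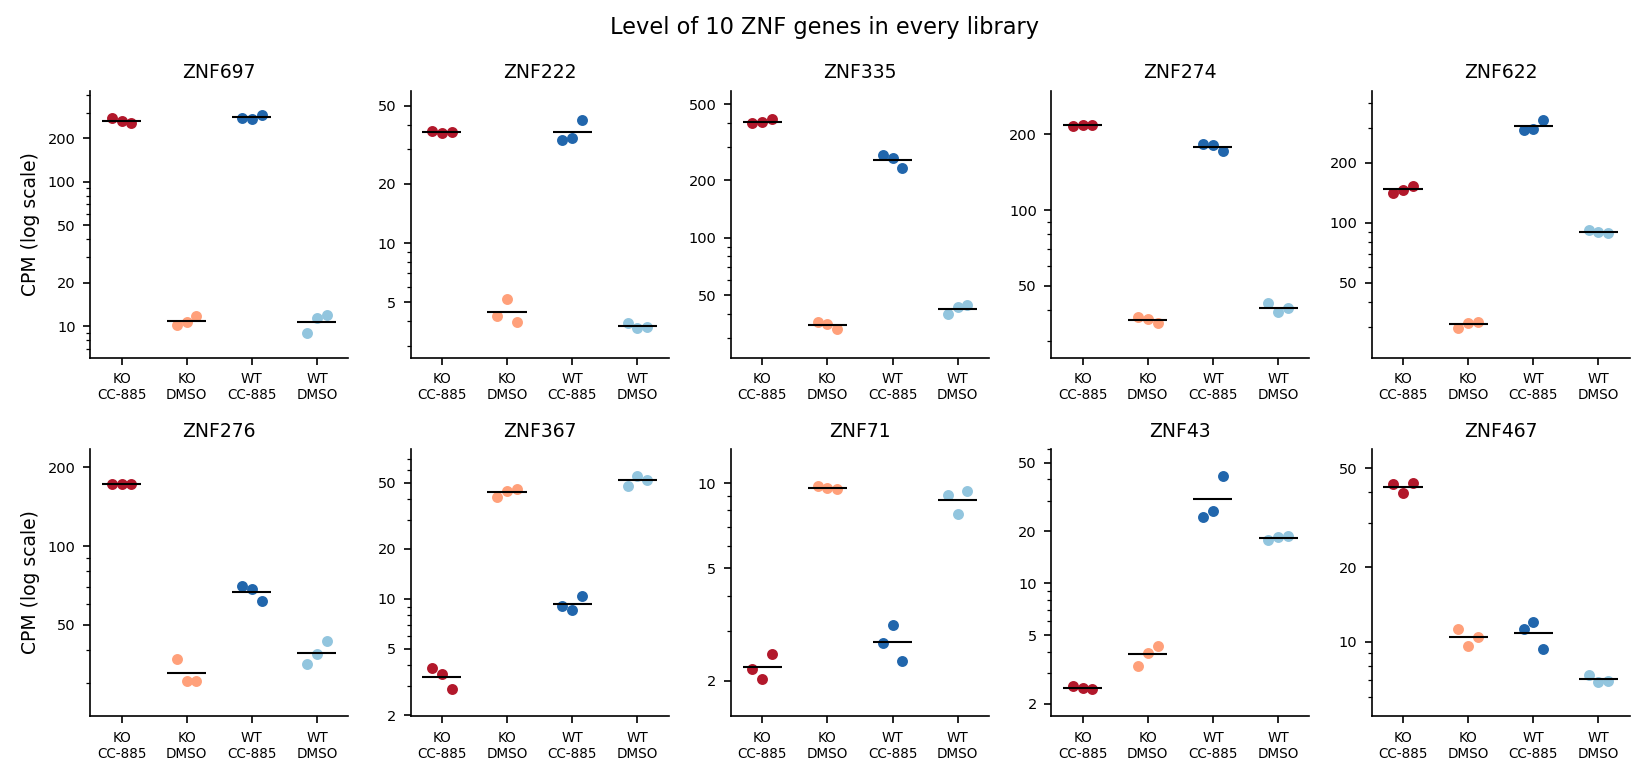
CPM on a log scale of 10 ZNF genes in each of the 12 libraries (points) with group means (lines). ZNF697, ZNF222, ZNF335, ZNF274 and ZNF622 were higher under CC-885 in both genotypes, ZNF367 and ZNF71 lower, ZNF276 and ZNF467 rose more in KO, and ZNF43 was low in all KO libraries.

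Rises outnumbered falls in genes with and without the KRAB pattern. Of all genes tested with 3000 or more counts, 39.4% were higher and 41.7% lower in WT, and 43.5% higher and 42.2% lower in KO. In WT cells 168 of 215 KRAB genes were higher and 22 lower (median log2 fold change 0.76), against 87 higher and 40 lower of 142 without the pattern (median 0.36). In KO cells the counts were 167 higher and 24 lower for KRAB genes (median 0.92), against 92 higher and 33 lower for the others (median 0.55). The KRAB genes of chromosome 19 gave 115 higher and 12 lower of 139 in WT (median 0.88), and those on other chromosomes 53 higher and 10 lower of 76 (median 0.60). Without the pattern, 14 of 28 on chromosome 19 were higher and 8 lower (median 0.27), and 73 of 114 elsewhere were higher and 32 lower (median 0.36). By number of fingers, 29 of 54 genes with 0 to 4 fingers were higher and 18 lower in WT (median 0.25). Genes with 5 to 9 fingers gave 69 of 98 higher and 18 lower (0.68). Those with 10 to 14 gave 98 of 126 higher and 16 lower (0.73), and those with 15 or more 59 of 79 higher and 10 lower (0.69). The classes overlap, and the differences between them were not tested.

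On chromosome 19, 155 of the 169 ZNF genes lay in 7 clusters of 8 or more with gaps under 1 Mb, and in WT 125 of the 155 were higher and 15 lower (median log2 fold change 0.85). The 14 outside gave 6 higher and 5 lower. Of all genes tested with 3000 or more counts, 39.4% were higher and 41.7% lower in WT, and 43.5% higher and 42.2% lower in KO. In the pericentromeric cluster from ZNF101 to ZNF254 (GRCh38 chr19:19668796-24129961) all 22 genes were higher in WT, with a median of 1.11, and 19 were higher and 1 lower in KO. In the cluster from ZNF175 to ZNF813 (chr19:51571298-53496255) 30 of 31 were higher and none lower in WT, with a median of 1.01. The largest cluster, from ZNF628 to ZNF446 near the end of the long arm, was more mixed, with 29 of 45 higher and 9 lower and a median of 0.57. The other clusters gave 10 of 11 higher and 0 lower (ZNF414 to ZNF846), and 13 of 17 higher and 2 lower (ZNF653 to ZNF791). They also gave 11 of 13 higher and 1 lower (ZNF146 to ZNF569), and 10 of 16 higher and 3 lower (ZNF576 to ZNF296). Tested genes without a zinc finger name inside the same 7 stretches gave 18 higher and 16 lower of 46, with a median of 0.18, and the 29 of them with 3000 or more counts gave 12 higher and 12 lower. In KO the 46 neighbours gave 22 higher and 16 lower. They were unevenly spread, with 17 between ZNF576 and ZNF296, 12 between ZNF628 and ZNF446, and 2 between ZNF101 and ZNF254. Those with 3000 or more counts gave 7 higher and 4 lower of 11 in WT in the first stretch (median 0.60, against 0.42 for its ZNF genes). In the second they gave 0 higher and 4 lower of 8 (median -0.18). A name alone does not exclude a zinc finger protein.

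**Figure D3:**
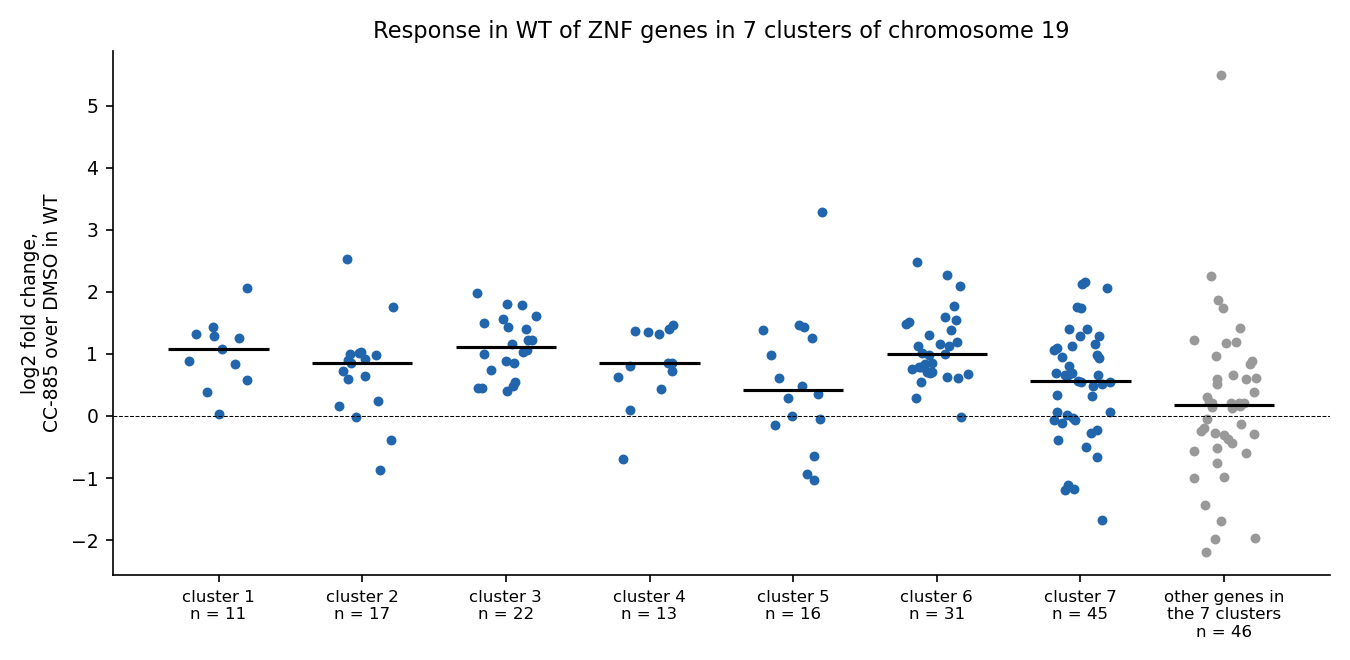
log2 fold change in WT (CC-885 over DMSO) of each ZNF gene in 7 clusters of chromosome 19 (blue, numbered along the chromosome) and of the 46 tested genes without a zinc finger name inside those stretches (grey); lines are medians. The medians of the ZNF clusters lie between 0.42 and 1.11, against 0.18 for the neighbours.

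In a list of KRAB repressors, some of them of repeats or imprinted genes, all 8 that belonged to the ZNF genes described here rose in both genotypes. ZNF382 and ZNF331 had too few counts to belong. Among all 362, 71.5% were higher in WT and 72.7% in KO, against 35.7% and 38.9% of all genes tested. The difference between this list and the other ZNF genes was not tested. ZNF91 and ZNF93 repress the SVA and L1 retrotransposons. ZNF91 had 105, 114 and 159 CPM in WT cells under CC-885, against 32.7, 38.8 and 37.5 CPM under DMSO, with the treated libraries higher throughout and replicate 3 the highest (log2 fold change 1.79 ± 0.13, SE; edgeR adjusted p = 3.56e-08; 1.59 without replicate 3), and its change in KO was 2.29 ± 0.13. ZNF93 rose by 0.85 in WT and 1.00 in KO. ZNF274, which brings SETDB1 to the 3′ ends of ZNF genes themselves, had 217, 217 and 219 CPM in KO cells under CC-885, against 37.6, 36.7 and 35.4 CPM under DMSO. The WT level was 182, 181 and 172 CPM under CC-885, against 42.7, 39.1 and 40.6 CPM under DMSO. No treated library came near a DMSO library, and the log2 fold change was 2.57 ± 0.06 in KO and 2.13 ± 0.06 in WT. ZNF10, whose KRAB domain is the silencing module of CRISPR interference, rose by 2.21 in WT and 2.35 in KO. ZNF445, a guardian of imprinting marks, rose less (WT 0.33, KO 0.68), as did ZNF202 (WT 0.29, KO 1.15), ZNF649 (WT 0.63, KO 0.68) and ZNF268 (WT 0.42, or 0.28 without WT CC-885 replicate 3, KO 0.32).

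Of 11 ZNF genes for RNA and ribosome factors, 9 rose and 2 fell in WT, and 9 rose and 1 fell in KO. Among all 362, 71.5% were higher in WT and 72.7% in KO, against 35.7% and 38.9% of all genes tested. The difference between this list and the other ZNF genes was not tested. ZNF622, the counterpart of a yeast maturation factor of the large ribosomal subunit, had 142, 146 and 154 CPM in KO cells under CC-885, against 29.8, 31.5 and 32 CPM under DMSO. WT libraries had 292, 297 and 326 CPM under CC-885, against 91.8, 89.7 and 89.4 CPM under DMSO. Both genotypes rose, from lower DMSO levels in KO, by 2.24 ± 0.06 in KO and 1.76 ± 0.06 in WT on the log2 scale (SE; edgeR adjusted p = 1.57e-14 and 3.76e-13). Per kb of exon, ZNF622 had the highest mean level of the 362 in 3 of the 4 groups, the exception being KO cells under DMSO. ZNF593, another factor of the large subunit, rose by 0.86 in WT (0.60 without WT CC-885 replicate 3) and 1.73 in KO. All 769 of its exon bases overlap AL391650.1 on the opposite strand, so reads of the pair may not be told apart. Nucleolar ZNF330 rose by 1.41 in WT and 1.99 in KO. ZNF326, part of a complex that links transcription elongation with splicing, rose by 1.95 in WT and 2.74 in KO. ZNF207, a partner of the mitotic checkpoint protein BUB3 and the gene with the most counts, had 554, 544 and 536 CPM in WT cells under CC-885, against 324, 309.8 and 297 CPM under DMSO (log2 fold change 0.81 ± 0.05). ZNF638 rose by 0.83 in WT, ZNF830 by 0.47 and ZNF346, which binds double-stranded RNA, by 0.30. ZNF598, the ubiquitin ligase that marks collided ribosomes, rose by 0.14 in WT (edgeR adjusted p = 0.0461), a call lost in 12 alternative settings, and by 0.38 in KO. ZNF385A, an RNA-binding partner of p53, fell by 1.03 in WT and 0.91 in KO, and ZNF706 fell by 0.18 in WT.

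Of 19 ZNF genes for sequence-specific activators and chromatin cofactors, 17 rose and 2 fell in each genotype. Among all 362, 71.5% were higher in WT and 72.7% in KO, against 35.7% and 38.9% of all genes tested. The difference between this list and the other ZNF genes was not tested. The pair ZNF143 and ZNF76 drive small nuclear RNA genes, and they moved apart: ZNF143 rose by 0.77 ± 0.07 in WT on the log2 scale (SE; edgeR adjusted p = 4.74e-08), whereas ZNF76 fell by 0.59 ± 0.07 (adjusted p = 7.21e-07). ZNF592, ZNF687 and ZNF532, which form a complex with ZMYND8, rose by 0.86, 1.40 and 1.02 in WT and by 1.35, 1.97 and 1.34 in KO. ZNF410, an activator of the remodeller gene CHD4, rose by 0.97 in WT, ZNF644, a partner of the histone methyltransferases G9a and GLP, by 1.27 (0.98 without WT CC-885 replicate 3), ZNF518A by 1.44 (1.18 without it) and ZNF518B by 0.82. ZNF644 had 216, 233 and 376 CPM in the treated WT libraries, replicate 3 being the highest. Exons of ZNF410 overlap AC005520.1 over 38.98% of the exon bases on the same strand, and those of ZNF263 overlap TIGD7 over 33.06% on the opposite strand. ZNF609 (1.26), ZNF131 (1.22), ZNF516 (1.06), ZNF24 (1.05), ZNF451 (0.81) and ZNF148 (0.62) lay between, and ZNF263 (0.42), ZNF217 (0.35) and ZNF281 (0.32) rose least. The second fall was that of ZNF395, a gene known to respond to hypoxia. Its level was 5.8, 5.37 and 4.55 CPM in WT cells under CC-885, against 13.8, 13.8 and 13.2 CPM under DMSO.

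Several C2H2 proteins have been reported as substrates that cereblon-binding drugs make the cell degrade. A list of 4 such genes was used, which may leave out other reported substrates among the 362. The 3 of them with enough counts rose in RNA in both genotypes, where 71.5% of the 362 were higher in WT and 72.7% in KO. Protein was not measured. ZNF654 rose by 1.80 in WT and 2.22 in KO, ZNF653 by 0.92 and 1.28, and ZNF276 by 0.78 and 2.40. CRBN itself, the cereblon gene, had 35.7, 37.8 and 37.2 CPM in KO cells under CC-885, against 16.3, 17.5 and 19.3 CPM under DMSO. In WT cells CRBN had 27.7, 30.3 and 56.2 CPM under CC-885, replicate 3 being the highest, against 16.4, 15.5 and 15.8 CPM under DMSO.

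The same gene mostly moved the same way in both genotypes, which have separate DMSO controls. Higher in both were 246 genes, which is 95% of those higher in WT and 93.5% of those higher in KO, and lower in both were 49, or 79.0% and 84.5%. Of all genes tested, 35.7% were higher and 36.6% lower in WT, and 38.9% higher and 40.0% lower in KO. Their overlap between genotypes was not computed, so the agreement cannot be called particular to the ZNF genes. ZNF43 and ZNF788 were higher in WT and lower in KO, and ZNF473, a factor of histone mRNA processing, and ZNF704 were lower in WT and higher in KO; these 4 were named after their values were seen. In neither genotype were 19 genes called. The response in KO minus that in WT, tested as an interaction, was called positive for 116 genes and negative for 12, with a median of 0.18, where 17.9% of all genes tested were positive and 16.8% negative (24.4% and 19.6% among genes with 3000 or more counts). Of the 116, 92 were genes that rose in both genotypes. Without WT CC-885 replicate 3 the counts were 161 and 20 and the median 0.23. Scaling by upper-quartile factors, which moved the median of all genes by -0.08, gave a median of 0.10 with 22 negative. Without the filter on low counts the median was 0.10, with 73 positive and 21 negative. The interaction contains the difference between KO and WT under DMSO, which depended on scaling. Its ZNF median was -0.17 with TMM and -0.05 with upper-quartile factors.

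**Figure D4:**
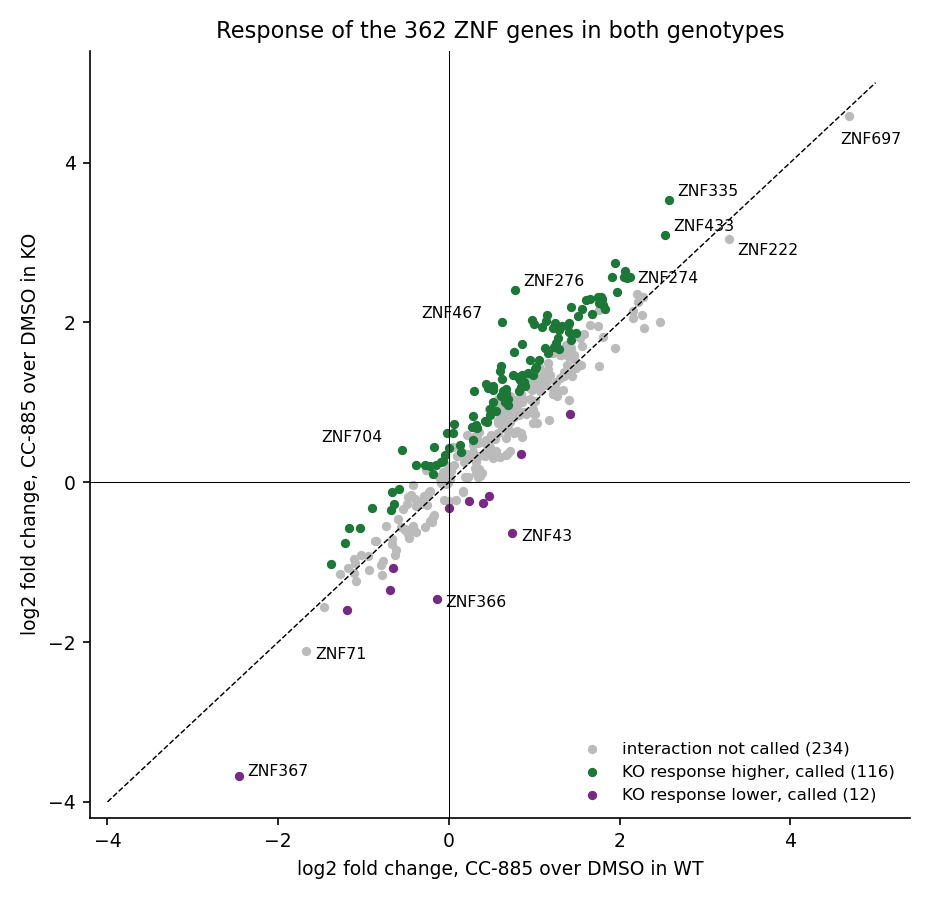
log2 fold change under CC-885 in KO (vertical axis) against that in WT (horizontal axis) for the 362 ZNF genes; the dashed line marks equal responses, and colour marks a called interaction (116 green, KO response higher; 12 purple, KO response lower). Of the 116 green genes 92 rose in both genotypes, and ZNF43 and ZNF366 lie well below the line.

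The positive differences were led by ZNF276. It had 173, 173 and 172 CPM in KO cells under CC-885, against 36.9, 30.5 and 30.4 CPM under DMSO. WT cells showed 70.1, 68.4 and 61.7 CPM under CC-885, against 35.2, 38.5 and 43.1 CPM under DMSO. Treated KO libraries exceeded all others, while untreated KO and WT libraries overlapped. The interaction was 1.63 ± 0.12 on the log2 scale (SE; edgeR adjusted p = 3.04e-07), and 31.00% of the exon bases of ZNF276 overlap FANCA on the opposite strand. ZNF467 had 43.1, 39.6 and 43.7 CPM in KO cells under CC-885, against 11.3, 9.58 and 10.5 CPM under DMSO. In WT it reached 11.3, 12 and 9.33 CPM under CC-885, against 7.38, 6.89 and 6.98 CPM under DMSO. Both genotypes rose without overlap, and KO rose further (interaction 1.39 ± 0.14, adjusted p = 3.52e-06). ZNF767 (1.05), ZNF354B (0.98), ZNF335 (0.96) and ZNF704 (0.95) followed.

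The negative differences were led by the KRAB gene ZNF43 of the pericentromeric cluster. It had 2.53, 2.46 and 2.44 CPM in KO cells under CC-885, against 3.28, 3.95 and 4.33 CPM under DMSO. The WT values were 24.4, 26.3 and 41.7 CPM under CC-885, against 17.7, 18.5 and 18.9 CPM under DMSO. Every KO library was below every WT library, and the drug moved the genotypes in opposite directions, by -0.64 ± 0.20 in KO and 0.74 ± 0.16 in WT (interaction -1.38 ± 0.25, edgeR adjusted p = 0.000947; -1.10 without WT CC-885 replicate 3). ZNF366, known as DC-SCRIPT from dendritic cells, had 3.53, 2.65 and 2.92 CPM in KO cells under CC-885, against 7.5, 8.01 and 9.57 CPM under DMSO. For WT cells the values were 10.4, 11.8 and 9.33 CPM under CC-885, against 10.2, 10.7 and 13.8 CPM under DMSO, a difference that did not pass the test (adjusted p = 0.365). ZNF367 fell further in KO (interaction -1.21 ± 0.14). The interactions of ZNF850 (-0.65), ZNF737 (-0.65) and ZNF492 (-0.67) were smaller, and that of ZNF492 (adjusted p = 0.0499) lost its call in 11 alternative settings, among them leaving out WT CC-885 replicate 3 (-0.40).

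Without the drug, KO cells had lower RNA of many ZNF genes than WT cells. Under DMSO 146 genes were lower and 35 higher in KO, with a median log2 fold change of -0.17, where 28.4% of all genes tested were lower and 21.3% higher (34.2% and 19% among genes with 3000 or more counts). This comparison depended on scaling: with upper-quartile factors, which moved the median of all genes by 0.12, 88 were lower and 63 higher and the median was -0.05. Without WT CC-885 replicate 3, which is in neither group but shares the estimate of the spread, 188 were lower and 42 higher. Changes of 2-fold or more were seen in 11 lower and 2 higher genes. Of all 16010 genes tested, 1069 were lower and 1131 higher by 2-fold or more. Of the 10713 with 3000 or more counts, 501 were lower and 281 higher.

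All 10 ZNF genes on chromosome 10 were lower in KO under DMSO, with a median log2 fold change of -1.26. They were not alone there, since 451 of 544 tested genes of chromosome 10 were lower, with a median of -0.99. Under CC-885 the same 10 were lower (median -1.31), beside 456 of the 544. ZNF438 had 39.6, 41.4 and 39 CPM in KO cells under DMSO, against 131, 131 and 131 CPM in WT cells under DMSO, without overlap (log2 fold change -1.71 ± 0.05, SE; edgeR adjusted p = 3.28e-12). ZNF503 had 14.4, 13.6 and 15.6 CPM in KO cells under DMSO, against 51.5, 46.6 and 46.5 CPM in WT cells under DMSO (-1.73 ± 0.10). The others were ZNF25 (-1.52), ZNF511 (-1.49, with 32.84% of exon bases over TUBGCP2 on the opposite strand), ZNF239 (-1.37), ZNF33B (-1.14), ZNF22 (-1.0), ZNF518A (-0.98), ZNF33A (-0.90) and ZNF32 (-0.86). On chromosome 5, 6 of 8 ZNF genes were lower, beside 328 of 665 tested genes, with ZNF622 (-1.54) and ZNF131 (-1.37) the furthest down. The part of these chromosome-wide differences in the ZNF values was not tested, and copy number was not measured.

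**Figure D5:**
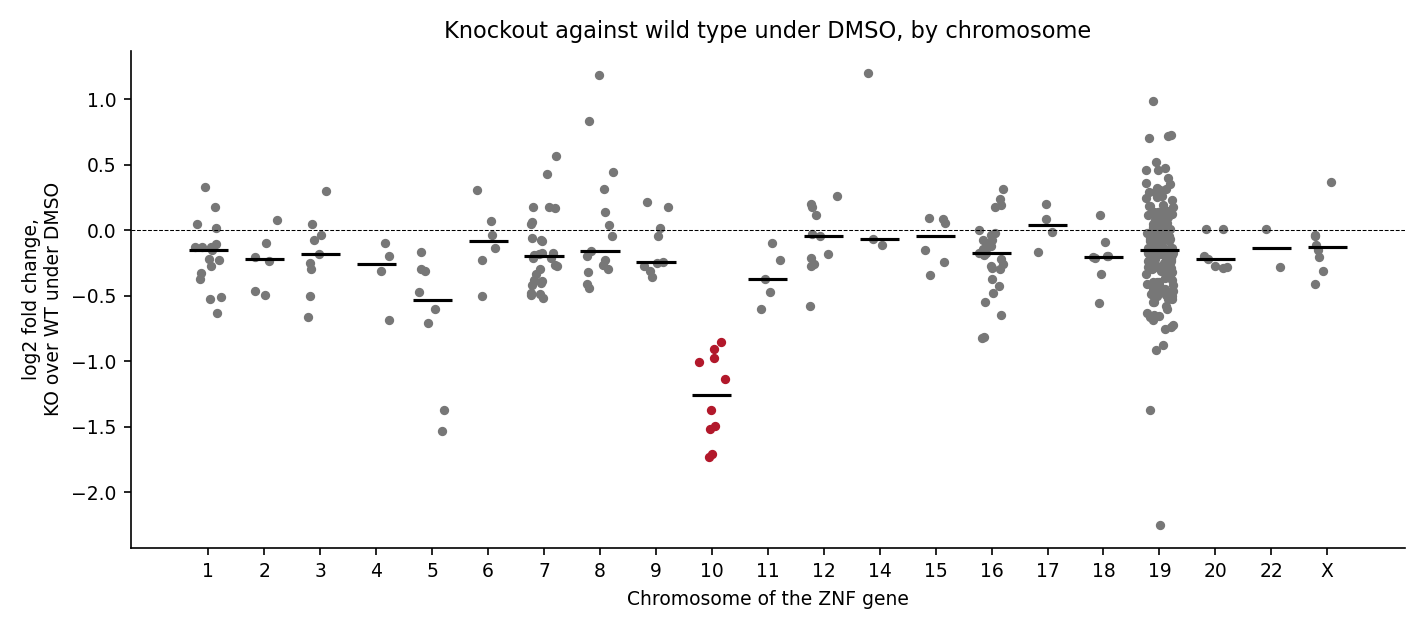
log2 fold change, KO over WT under DMSO, of each ZNF gene (points) by chromosome, with medians (lines). The 10 genes of chromosome 10 (red) lie between -1.73 and -0.86, apart from nearly all others, and the lowest point, on chromosome 19, is ZNF43 at -2.25.

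Outside chromosomes 5 and 10 the largest falls in KO under DMSO were those of ZNF43 (-2.25 ± 0.18, SE; edgeR adjusted p = 1.65e-07) and ZNF574 (-1.38 ± 0.07). ZNF574 had 18.4, 18.4 and 18.7 CPM in KO cells under DMSO, against 47.1, 47.6 and 49.5 CPM in WT cells under DMSO, without overlap. In the pericentromeric cluster of chromosome 19 that holds ZNF43, 18 of 22 genes were lower and 1 higher, with a median of -0.49. Of the RNA and ribosome factors 9 of 11 were lower and 1 higher, and of the KRAB repressors 5 of 8 were lower, where 40.3% of all 362 were lower and 9.67% higher. The largest rises were those of ZNF219 (1.20 ± 0.10), ZNF395 (1.19 ± 0.08) and ZNF610 (0.99 ± 0.14). ZNF395 had 30.5, 30.3 and 32.2 CPM in KO cells under DMSO, against 13.8, 13.8 and 13.2 CPM in WT cells under DMSO, so every KO library was above every WT library. Smaller rises were seen for ZNF596 (0.83), ZNF818P (0.73), ZNF302 (0.72), ZNF525 (0.70), ZNF467 (0.56), ZNF583 (0.52) and ZNF429 (0.47).

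Under CC-885 the ZNF genes of KO and WT cells gave similar counts in both directions, with 114 higher and 87 lower in KO and a median log2 fold change of 0.03, where 27.8% of all genes were higher and 30.8% lower. The largest differences upward were ZNF467 (1.95 ± 0.10, SE; edgeR adjusted p = 1.84e-10), ZNF395 (1.54), ZNF276 (1.37), ZNF219 (1.31), ZNF704 (1.27) and ZNF767 (0.99). Downward they were ZNF43 (-3.63 ± 0.19, adjusted p = 1.88e-09; -3.35 without WT CC-885 replicate 3), ZNF366 (-1.79), ZNF511 (-1.74), ZNF239 (-1.59), ZNF438 (-1.47) and ZNF367 (-1.45). ZNF395 had 15.5, 15.2 and 15 CPM in KO cells under CC-885, against 5.8, 5.37 and 4.55 CPM in WT cells under CC-885, so it remained above WT although it fell in both genotypes.

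KRAB proteins act through the TRIM28 corepressor complex. Of its 18 genes 4 were higher and 9 lower in WT, and 6 higher and 11 lower in KO, where of all genes with 3000 or more counts 39.4% were higher and 41.7% lower in WT and 43.5% higher and 42.2% lower in KO. TRIM28 averaged 582 ± 40.5 CPM in WT cells under CC-885 and 640.3 ± 28 CPM under DMSO (SD, n = 3 each), a difference that did not pass the test (log2 fold change -0.14 ± 0.06, edgeR adjusted p = 0.0545). SETDB1, the methyltransferase of the complex, rose by 0.66 in WT and 0.91 in KO. CBX5, which encodes HP1 alpha, fell by 2.29 in WT and 3.43 in KO: it averaged 43.6 ± 3.03 CPM in KO cells under CC-885 and 471 ± 58.2 CPM under DMSO, and 94.7 ± 3.25 CPM in WT cells under CC-885 and 464 ± 8.94 CPM under DMSO. Of 16 heterochromatin and repeat-silencing genes 5 were higher and 8 lower in WT, and 7 higher and 7 lower in KO, with UHRF1, a reader of hemimethylated DNA, the largest fall of those named (-2.80 in WT, -4.76 in KO).

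Other C2H2 families were counted in the same way. Of 65 genes named ZBTB, ZFP, ZSCAN or ZKSCAN with 3000 or more counts, 34 were higher and 21 lower in WT (median 0.27), and 38 were higher and 18 lower in KO (median 0.58), where 39.4% of all genes with as many counts were higher and 41.7% lower in WT, and 43.5% higher and 42.2% lower in KO. Under DMSO 31 of the 65 were lower and 3 higher in KO against WT (34.2% and 19% of all such genes), the comparison that depended on scaling, and their interaction was called positive for 31 and negative for 8 (24.4% and 19.6%). The difference between these families and the ZNF genes was not tested.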

How the data were processed

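The authors deposited raw counts of reads per gene symbol for 12 libraries; depth ran from 46903984 to 56675539 counts. Per the submitters' processing notes the tools were FastQC 0.11.2, HISAT2 2.0.5 and featureCounts 1.5.2 with GRCh38; per the labels' protocols the libraries were TruSeq poly(A) and the alignment used a mouse genome instead, and since the symbols are human the notes were followed. No source used here gives the strand or multimapping settings.

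Counts were filtered with filterByExpr, scaled by TMM and fitted with edgeR 4.0.16 (limma 3.58.1, R 4.3.3; glmQLFit robust, glmQLFTest), 1 coefficient per group over all 12 libraries, so that the groups share 1 estimate of the spread (common biological coefficient of variation 0.0899). Adjusted p-values are Benjamini-Hochberg over all 16010 genes tested and calls were made under 0.05. TMM assumes that most genes do not change, so every change is relative to the other RNA. The fit was also run on simulated data in which few genes changed, in WT under CC-885 alone. Of 15518 unchanged genes 5 were called. Genes set to a log2 fold change of 1 were called in 76% of cases, and those set to 0.5 in 50%. For -1 and -0.5 the shares were 75% and 55.1%. In the real data most genes were called under CC-885, so the simulation does not check the assumption of TMM.

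Fingers (C-x(2,4)-C-x(12)-H-x(3,5)-H) and the KRAB pattern were searched in coding sequences of GENCODE 29; promoter windows came from RefSeq. Named genes are the 10 largest called rises and falls per comparison whose groups do not overlap (6 for the interaction, without that condition, and for KO against WT under CC-885), lists of known roles, and genes next to the count threshold. The 362 genes and all lists were chosen with earlier results of these data known. Alternatives were DESeq2 1.42.0, other scaling factors, other filters and thresholds, replicate blocks and leaving out each library. Summaries and figures used Python 3.11.15, pandas 2.3.3 and numpy 2.4.6.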

Additional observations from a re-analysis of the deposited data

Results flagged for a closer look

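For 12 ZNF genes the response to CC-885 differed between the genotypes by the edgeR interaction term, at the largest sizes in each direction among those that passed. The response in KO minus that in WT, on the log2 scale, was 1.63 for ZNF276, 1.39 for ZNF467, 1.05 for ZNF767, 0.98 for ZNF354B, 0.96 for ZNF335 and 0.95 for ZNF704. It was -1.38 for ZNF43, -1.32 for ZNF366, -1.21 for ZNF367, -0.67 for ZNF492, -0.65 for ZNF850 and -0.65 for ZNF737. Of these, ZNF276, ZNF467, ZNF767, ZNF354B and ZNF335 rose in both genotypes and more in KO, and ZNF367 and ZNF850 fell in both and more in KO. ZNF43 rose in WT and fell in KO, and ZNF704 fell in WT and rose in KO. ZNF492 and ZNF737 rose in WT and were not called in KO, and ZNF366 fell in KO and was not called in WT. The interaction of ZNF492 had an adjusted p of 0.0499, and without WT CC-885 replicate 3 it was -0.40 with an adjusted p of 0.0849.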

How the results depend on the processing

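Of 372 counts and medians recomputed under alternatives, 344 stayed within 1.5 times the count or within the spread of the median, 28 moved and 0 reversed; of 6086 single-gene values, 198 lost and 67 gained a call. Of 1836 values of genes named by size, 12 lost their call: 11 were the interaction of ZNF492 (adjusted p up to 0.185) and 1 was ZNF583 in KO against WT under DMSO. Upper-quartile factors moved the median log2 fold change to 0.59 under CC-885 in WT, 0.70 under CC-885 in KO, -0.0495 for KO against WT under DMSO (63 higher, 88 lower), 0.0765 under CC-885 and 0.10 for the interaction (22 lower). They moved the median of all genes by -0.15 for CC-885 in KO. Scaling by library size gave medians of 0.60 (CC-885 in WT), 0.75 (CC-885 in KO) and -0.12 (KO against WT under DMSO). Without the filter on low counts the medians were 0.79 for CC-885 in KO, -0.12 for KO against WT under DMSO and 0.10 for the interaction (73 higher, 21 lower). A threshold of 5000 counts gave 0.90 for CC-885 in KO, and one on the DMSO libraries, added after seeing the data, 0.60 in WT and 0.77 in KO. Fitting only the groups compared gave -0.11 for KO against WT under DMSO. Libraries whose names start with 51 alone gave a median of 0.0723 for KO against WT under CC-885. They hold 1 WT library under DMSO, which is assumed to vary like the other groups. The other names start with 52: WT DMSO replicates 2 and 3, WT CC-885 replicate 3 and KO DMSO replicate 3. No KO CC-885 library is among these, so the prefix is partly confounded with group. The labels do not explain the prefix.

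Of 18 pairs of libraries with the same number in the titles, 5 correlated over 0.1 in their deviations from the group means, with a range of -0.116 to 0.341. Pairs with different numbers were not compared, so whether the numbers pair the libraries was not tested. With the title's number as a replicate block, 258 genes were higher and 62 lower under CC-885 in WT, 266 and 58 in KO, 33 and 144 for KO against WT under DMSO, 116 and 86 under CC-885, and 117 and 13 for the interaction. With the library-name number as the replicate block, 20 were higher for KO against WT under DMSO and 7 had a negative interaction. Leaving out 1 library at a time gave 253 to 259 higher, 58 to 65 lower and medians of 0.58 to 0.68 for CC-885 in WT, and 259 to 268, 54 to 61 and 0.83 to 0.88 in KO. For KO against WT it gave 26 to 42 higher, 116 to 188 lower and -0.19 to -0.15 under DMSO, and 98 to 136, 67 to 85 and 0.004 to 0.0766 under CC-885. For the interaction it gave 95 to 161 positive, 8 to 20 negative and 0.16 to 0.23. Causes of these shifts were not tested.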
